A study of Mus musculus with 6 samples.

Results

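The carriers of the mitochondrial inner membrane that are encoded by the Slc25 genes were followed in mouse liver mRNA. Members were taken by name from the deposited table of 23474 genes: symbols made of Slc25a and a number, without Slc25a1 and Slc25a20, and with a mean of at least 1 FPKM over all libraries. FPKM counts fragments scaled by transcript length and by the mapped total of the library, so levels can be set side by side between genes. This gave 36 of the 47 Slc25a genes in the table. At the limit, Slc25a53 was just inside with a mean of 1.01 FPKM, and Slc25a27 and Slc25a14 were just outside with means of 0.970 and 0.966 FPKM.

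Slc25 proteins share a fold of tandem repeats and move nucleotides, phosphate, amino acids, organic acids, cofactors and iron across a membrane that is otherwise closed to them. In the liver they link the matrix with the cytosol for ATP export, the urea cycle, gluconeogenesis, the transfer of reducing equivalents and heme synthesis. Most sit in mitochondria, while Slc25a17 is found in peroxisomes and Slc25a46 in the outer mitochondrial membrane.

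Both groups were male C57BL/6J mice aged 17 weeks that had eaten a high-fat diet for 12 weeks from 5 weeks of age. The first group had the diet alone (HFD, 3 libraries). The second had it with 1.5% (w/w) Bangpungtongseong-san extract, an oriental herbal medicine (BT, 3 libraries). No chow-fed group was analysed here, so every comparison is between groups that both ate the high-fat diet. The study fed 10 mice per group. Whether each library came from a single animal or from pooled tissue is not stated in the labels, and p-values refer only to spread among libraries, which may be technical. The codes in the labels hold a D for every HFD library and an R for every BT library. What these letters stand for is not known here, and anything else that went with them cannot be told apart from diet.

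Depth was about 13.8 to 15.8 fragments per FPKM and kilobase of transcript in each library, a rough estimate from the lowest values. At that depth the members with the fewest fragments, Slc25a29, Slc25a35 and Slc25a53, rest on about 46.1 to 61.0 fragments per library, and Slc25a47 on about 10920. Of 6 hepatocyte markers, 5 were present at 102 FPKM or more in every library, and 1 of them, Ttr, was lower with BT (-0.76, limma, adjusted p = 0.0157). Cps1 and Cyp2e1 were higher in every BT library without passing (0.58 and 0.53, adjusted p = 0.0620 and 0.0501). Apoa1 was lower in every BT library (-0.49, adjusted p = 0.0872) and Serpina1a overlapped (-0.14, adjusted p = 0.553), also without passing. The sixth, Alb, has a 0 for HFD replicate 3 and 22791 to 27895 FPKM elsewhere. The mitochondrially encoded mt-Co1 also has a 0 there, and 44334 to 53659 FPKM elsewhere. A value of 0 in this table can therefore be a failed estimate. In bulk tissue, fewer cells of a type and less RNA per cell cannot be told apart.

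The carrier mRNAs spanned more than 2 orders of magnitude, and a few made up most of the total. Slc25a5, which encodes the ADP/ATP carrier ANT2, was the most abundant, at 481, 502 and 496 FPKM in HFD and 458, 477 and 467 in BT. Slc25a47, a carrier found mainly in hepatocytes whose cargo is not settled, came next, with a mean of 391 FPKM. Together they made up 39.5% of the members' summed FPKM, and the 6 most abundant members made up 75.3%. The other 4 of these 6 were Slc25a39 (mitochondrial glutathione, 235 FPKM), Slc25a10 (dicarboxylates, 233), Slc25a3 (phosphate, 198) and Slc25a22 (glutamate, 123). The median member stood at 15.1 FPKM.

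**Figure D1:**
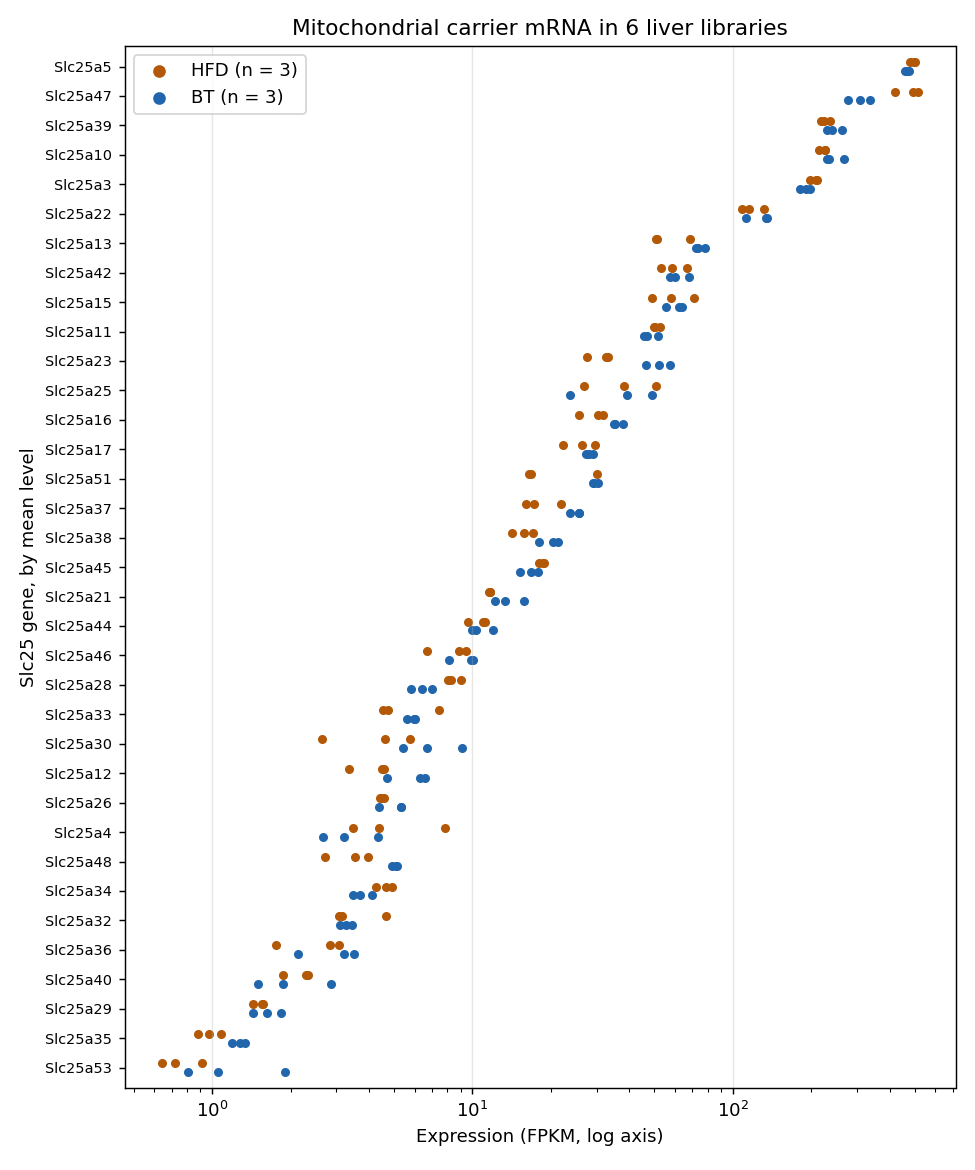
Expression of 35 of the 36 Slc25 genes in FPKM on a log axis, ordered by mean level, with 1 point per library (3 HFD above, 3 BT below on each line). Levels run from 1.01 FPKM for Slc25a53 to 480 FPKM for Slc25a5, and for most genes the points of the diets overlap or nearly touch. Slc25a47 and Slc25a23 are among the genes whose points separate.

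The value of Slc25a5 is less certain than its depth would give. Other gene models, Gm13798, Gm5529 and Gm5560, match 72.3% of its longest transcript at 95% identity or more, so reads could have been shared with them. For the next most affected member, Slc25a36, the matched part was 17.7%. Exons of other genes cover 31.3% of the exon bases of Slc25a35 (Rangrf, opposite strand) and 14.9% of those of Slc25a33 (Gm13068, opposite strand), and the strand setting of the counting is not given in the sources used here. For the other members named below as changed or close to the threshold, this share was 6.33% or less.

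Between the diets 1 member rose and 1 fell: Slc25a23 was higher and Slc25a47 lower with BT, and the other 34 did not pass the test. These 2 of 36 are 5.56% of the members. Of all 10476 genes tested, 13.3% passed (6.01% higher and 7.33% lower). With so few calls the order of these shares was not tested. After removal of the length and GC trend described below, 2 members were higher and 2 lower, beside 399 and 550 of 10403 genes. Rescaling the libraries to the same sum gave 3 and 1 members, beside 621 and 558 genes. The sum of HFD replicate 3 lacks Alb and mt-Co1, listed at 0 there, so this rescaling carries an error for that library. Median-of-ratios scaling called 448 genes higher and 884 lower, against 630 and 768 in the values given here. The 3 BT values lay wholly above the 3 HFD values in 10 members and wholly below in 6, that is 44.4% of the members against 39.3% of all genes tested (23.2% above and 16.1% below). At an unadjusted p under 0.05 there were 11 members (30.6%, against 32.4% of all genes tested), 9 with higher and 2 with lower values with BT.

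The median log2 change of the members was 0.11, beside 0.07 over all genes tested. Changes are BT minus HFD on the scale log2(FPKM + 1), which understates those of low genes. Of the members 25 had a change above 0 (69.4%, against 59.2% of all genes tested). In 21 of 36 members the change was smaller than 0.2 in either direction. The summed FPKM of all members was 2225, 2225 and 2299 with HFD and 2104, 2240 and 2134 with BT, which overlap. Replicates of these genes were close: the median coefficient of variation was 11.2% in HFD and 8.90% in BT, beside 14.6% and 9.02% over all genes tested.

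**Figure D2:**
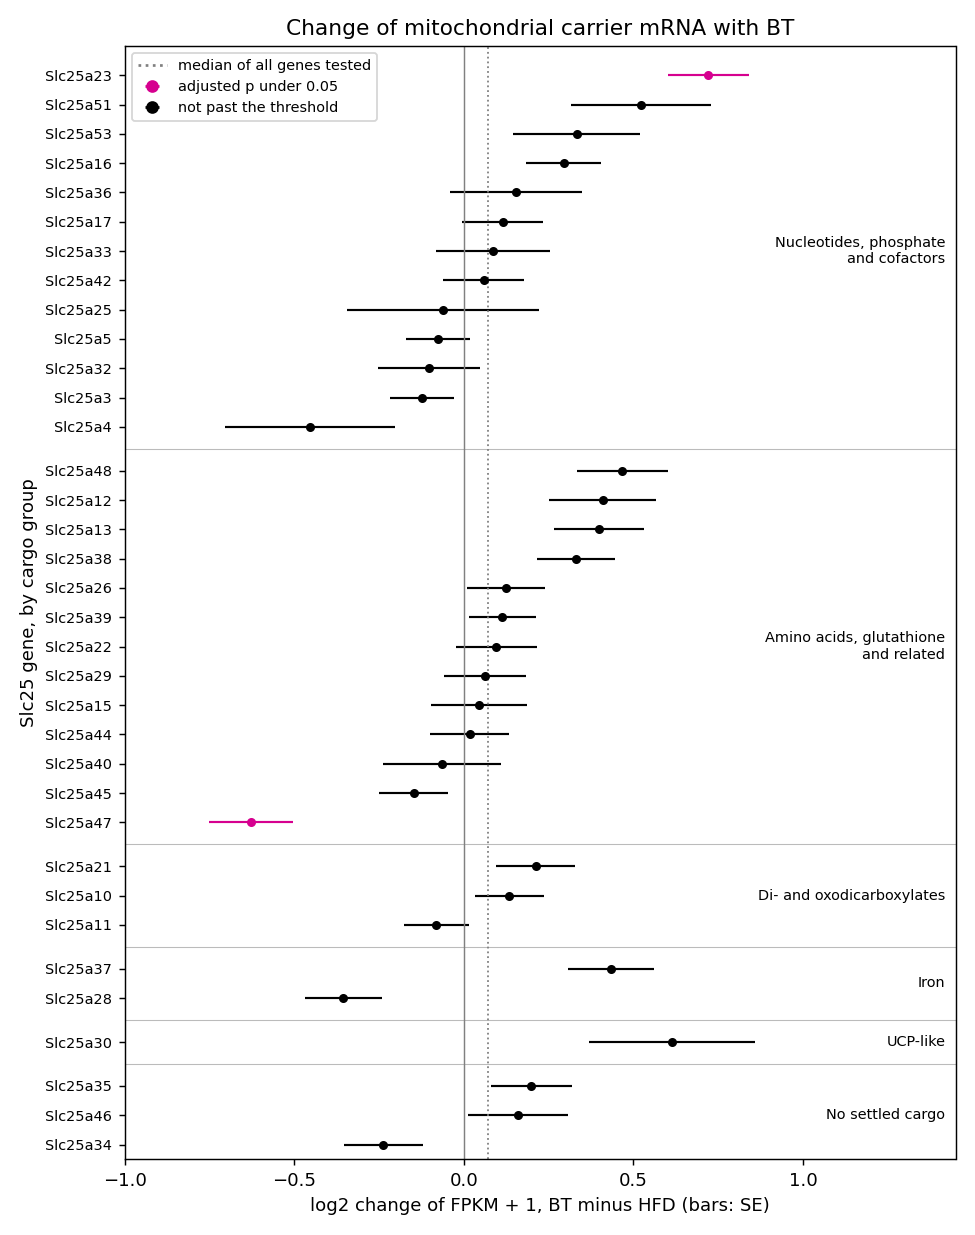
Log2 change of FPKM + 1, BT minus HFD, for 35 of the 36 Slc25 genes grouped by cargo. Points are limma estimates from 3 libraries per diet and bars their SE. Coloured points passed an adjusted p of 0.05: Slc25a23 at 0.72 and Slc25a47 at -0.63. The dotted line is the median of all genes tested, 0.07.

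Slc25a23 encodes SCaMC-3, a calcium-regulated carrier that exchanges ATP-Mg for phosphate and so sets the adenine nucleotide content of the matrix. Its gene lies on chromosome 17, 57043711 to 57059863, minus strand (GRCm38, protein-coding). It stood at 32.5, 27.6 and 33.3 FPKM in HFD replicates 1 to 3 and at 46.4, 57.3 and 52.2 in BT replicates 1 to 3. The lowest BT library was above the highest HFD library. The mean went from 31.1 ± 3.10 to 52.0 ± 5.48 FPKM (SD, n = 3 each), 1.67-fold. The log2 change was 0.72 ± 0.12 (SE, limma, adjusted p = 0.0126). It passed in 15 of 16 alternative analyses and missed the threshold without BT replicate 2 (0.65, adjusted p = 0.0516; range over all alternatives 0.00934 to 0.0516).

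Slc25a47, also known as HDMCP, is expressed mainly in hepatocytes. Its gene lies on chromosome 12, 108836046 to 108856815, plus strand. It stood at 419, 492 and 513 FPKM in HFD replicates 1 to 3 and at 276, 335 and 309 in BT replicates 1 to 3. All BT values were below all HFD values. The mean went from 475 ± 49.4 to 307 ± 29.7 FPKM (SD, n = 3 each), 1.55-fold lower. The log2 change was -0.63 ± 0.12 (SE, limma, adjusted p = 0.0185). In HFD replicate 3 it exceeded Slc25a5, at 513 against 496 FPKM. Its share of the members' summed FPKM was 21.1% ± 1.96 in HFD and 14.2% ± 0.960 in BT, while that of Slc25a5 was 21.9% ± 0.552 and 21.6% ± 0.306 (SD, n = 3 each).

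The call for Slc25a47 was lost without any 1 of the BT libraries (adjusted p = 0.0925, 0.0511 and 0.0530 without replicates 1, 2 and 3) and with quantile normalization (-0.44, adjusted p = 0.0691). Its change stayed negative in all 16 alternatives, between -0.72 and -0.44. Slc25a29, a carrier of basic amino acids, is the neighbouring gene on the opposite strand (chromosome 12, 108825873 to 108835883). It was at 1.44, 1.57 and 1.55 FPKM with HFD and 1.84, 1.63 and 1.44 with BT. These values overlap (log2 change 0.06 ± 0.12, adjusted p = 0.747).

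The sequences before the start sites of these 2 genes are shown because they are the members that passed the test, in opposite directions. They are the 250 bases before the start in RefSeq (GRCm38.p6), 5′ to 3′ on the strand of the gene, chr17:57059864-57060113 (minus strand) for Slc25a23 and chr12:108850879-108851128 (plus strand) for Slc25a47. The window of Slc25a47 lies inside the gene span given above: the GENCODE gene begins further upstream than the RefSeq start used here. Capitals mark matches, on either strand, to the CCAAT box, spelled so, or to the GC box (GGGCGG), common elements of promoters.
Slc25a23: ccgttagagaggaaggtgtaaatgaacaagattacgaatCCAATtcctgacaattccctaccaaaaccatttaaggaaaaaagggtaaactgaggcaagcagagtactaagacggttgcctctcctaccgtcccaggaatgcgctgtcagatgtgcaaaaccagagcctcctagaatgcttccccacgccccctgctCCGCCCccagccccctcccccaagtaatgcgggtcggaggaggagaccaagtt
Slc25a47: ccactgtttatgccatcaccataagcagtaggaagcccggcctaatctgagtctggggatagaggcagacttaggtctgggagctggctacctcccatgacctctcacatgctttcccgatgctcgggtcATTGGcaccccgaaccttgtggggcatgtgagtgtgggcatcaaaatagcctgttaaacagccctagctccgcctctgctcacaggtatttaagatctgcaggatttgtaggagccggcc
The window of Slc25a23 holds a CCAAT match that begins 211 bases before the start and a GC box match on the other strand that begins 53 bases before it. The window of Slc25a47 holds 1 match, a CCAAT box on the other strand that begins 120 bases before the start.

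RefSeq windows were matched for 28 members, and those of the other 8, among them Slc25a37 and Slc25a51, were not used. The first listed window of each gene was searched on both strands. A GC box was in 20 of the 28 (71.4%, against 32.9% of the windows of 27025 genes) and a CCAAT box in 15 (53.6% against 34.5%). TATAA, the core of the TATA box, was in 1, Slc25a15 (3.57% against 23.5%). The binding motif of NRF1, a factor known for nuclear genes of mitochondrial proteins, was also in 1, Slc25a3 (3.57% against 3.86%). The windows of the members had a median GC content of 59.2% and 14 CpG sites, those of all genes 52% and 6. The 27025 genes were not filtered by expression in liver, as the members were, so these shares and medians compare unlike sets. The motif counts are matches of letters, and the RNA data do not show whether a factor binds there.

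**Figure D3:**
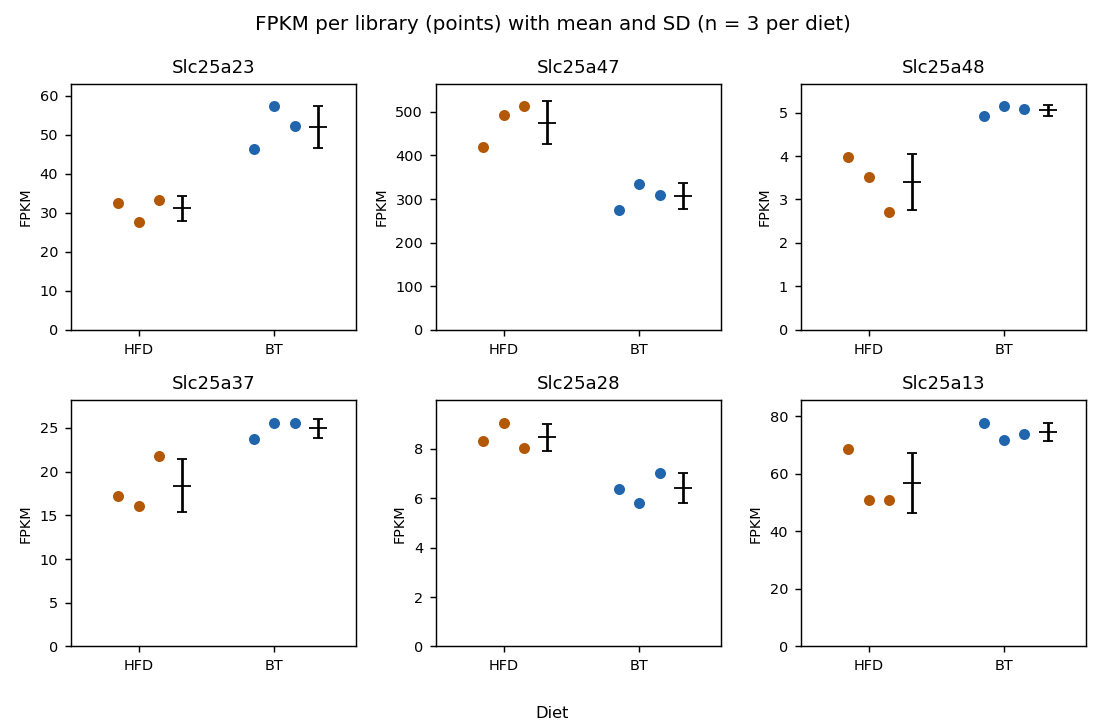
FPKM of 6 Slc25 genes per library (points) with the mean and SD (n = 3 per diet), on axes that start at 0. Slc25a23 and Slc25a47 passed an adjusted p of 0.05, and Slc25a48, Slc25a37, Slc25a28 and Slc25a13 had the next smallest p-values. In all 6 the BT points do not overlap the HFD points.

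Carriers of nucleotides, phosphate and cofactors had 14 members, of which Slc25a23 rose and none fell. The group's median change was 0.10. The ADP/ATP carrier Slc25a5 and the phosphate carrier Slc25a3, which together supply ATP synthase, were both slightly lower in every BT library than in every HFD library. Slc25a5 went from 493 ± 10.6 to 467 ± 9.65 FPKM (-0.08, adjusted p = 0.596), and Slc25a3 was at 209, 211 and 198 FPKM with HFD and 181, 190 and 197 with BT (-0.12, adjusted p = 0.393). Neither passed. The difference turned positive for both with quantile normalization (0.02 each) and for Slc25a5 also when libraries were rescaled to the same sum (0.01) and after removal of the length and GC trend (0.16).

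Slc25a51, which brings NAD into mitochondria, had a wide spread in HFD. It was at 16.5, 16.8 and 30.1 FPKM in HFD replicates 1 to 3 and at 30.4, 29.4 and 29.1 in BT replicates 1 to 3. HFD replicate 3 thus lay within the BT range. The log2 change was 0.52 ± 0.21 (limma, adjusted p = 0.122), and without HFD replicate 3 it was 0.79 (adjusted p = 0.0115).

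Slc25a16, linked to coenzyme A in the matrix, was at 31.8, 25.6 and 30.4 FPKM in HFD and 35.4, 37.8 and 34.8 in BT. These do not overlap, but the difference did not pass (0.30 ± 0.11, adjusted p = 0.108; 0.17 after removal of the length and GC trend). Slc25a42, which carries coenzyme A, overlapped between diets, at 59.4 ± 6.71 and 61.8 ± 5.65 FPKM (0.06, adjusted p = 0.755). Slc25a17, Slc25a32 (folate and FAD), Slc25a33 and Slc25a36 (pyrimidine nucleotides) and Slc25a53, whose cargo is not settled, differed by -0.10 to 0.33 (adjusted p 0.250 to 0.744). Slc25a53 owed its difference in part to BT replicate 1, at 1.91 FPKM against 0.807 and 1.06 in the other BT libraries.

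Slc25a4, the ANT1 form of the ADP/ATP carrier typical of heart and muscle, was at 3.47, 7.81 and 4.36 FPKM in HFD and 2.65, 3.22 and 4.32 in BT. HFD replicate 2 stood apart as the highest. The log2 change was -0.45 ± 0.25 (adjusted p = 0.240), and -0.17 without that library. Skeletal muscle markers were also highest in that library. Elsewhere the order of the libraries differed between these markers and Slc25a4. The summed FPKM of the 4 markers in the table (Ckm, Myh4, Mylpf and Tnnt3) was 66.1 in HFD replicate 2, and 0.263 and 13.1 in HFD replicates 1 and 3. In BT replicates 1 and 2 it was 21.0 and 24.5, above those of HFD replicates 1 and 3, while Slc25a4 was lower there. Ckm, Myh4 and Tnnt3 are listed at 0 in HFD replicate 1, none of the 4 passed the test, and their part in the value of Slc25a4 was not tested.

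Carriers of amino acids, glutathione and related cargo had 13 members, with Slc25a47 the only one lower and none higher. Slc25a47, Slc25a45 and Slc25a48 were placed in this group although their cargo is less settled than that of the rest. The median change was 0.10, and 10 of 13 changes were above 0. Slc25a48 had the smallest p of the members that did not pass. It was at 3.98, 3.52 and 2.72 FPKM in HFD and 4.92, 5.15 and 5.09 in BT, which do not overlap. Its log2 change was 0.47 ± 0.13 (adjusted p = 0.0530). It passed without HFD replicate 1 (0.56, adjusted p = 0.0403), and not with the length and GC trend removed (0.40, adjusted p = 0.113). It also passed when libraries were rescaled to the same sum (0.54, adjusted p = 0.0477), with the limit given above for HFD replicate 3.

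The aspartate/glutamate carriers of the malate-aspartate shuttle, which hand reducing equivalents from cytosolic NADH to the matrix, were both higher in every BT library. Slc25a13 (citrin), the liver form that also feeds the urea cycle with aspartate, was at 68.7, 50.8 and 51.0 FPKM in HFD and 77.9, 71.9 and 73.8 in BT. HFD replicate 1 came close to the BT values. The log2 change was 0.40 ± 0.13 (adjusted p = 0.0784), and without HFD replicate 1 it was 0.54 (adjusted p = 0.0172). Slc25a13 also passed with quantile normalization (0.48, adjusted p = 0.0429), and not with the length and GC trend removed (0.29, adjusted p = 0.182). Slc25a12 (aralar), the form of brain and muscle, was at 4.51, 3.35 and 4.57 FPKM in HFD and 6.55, 6.28 and 4.68 in BT (0.41 ± 0.16, adjusted p = 0.113). BT replicate 3 was barely above the HFD range. After removal of the length and GC trend the change was 0.18.

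Slc25a38, a glycine carrier needed for heme synthesis, was at 14.1, 17.0 and 15.7 FPKM in HFD and 18.1, 21.3 and 20.3 in BT. The groups do not overlap, and the difference did not pass (0.33 ± 0.11, adjusted p = 0.0866). It passed after removal of the length and GC trend (0.46, adjusted p = 0.0243). It also passed when libraries were rescaled to the same sum (0.42, adjusted p = 0.0486), with the limit given above for that rescaling.

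The other 8 members of the group differed by -0.15 to 0.12 (adjusted p 0.344 to 0.927). The ornithine carrier Slc25a15, which serves the urea cycle, was at 70.7, 48.9 and 57.9 FPKM in HFD and 62.0, 55.6 and 63.9 in BT. The glutamate carrier Slc25a22 was at 119 ± 11.5 and 127 ± 13.1, and the glutathione carrier Slc25a39 at 226 ± 9.16 and 244 ± 15.9 (SD, n = 3 each). The change of Slc25a39, 0.11, was 0.34 after removal of the length and GC trend (adjusted p = 0.0796). The branched-chain amino acid carrier Slc25a44 had the smallest change of all members, 0.02 ± 0.12 (adjusted p = 0.927). Slc25a45 was lower in every BT library than in every HFD library, at 16.6 ± 1.30 against 18.5 ± 0.446 FPKM, without passing (-0.15, adjusted p = 0.344). Slc25a26 carries S-adenosylmethionine, and Slc25a40 is the close relative of Slc25a39.

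The mitoferrins bring iron into mitochondria for heme and iron-sulfur clusters, and their values went in opposite directions without either passing. Slc25a37 (mitoferrin-1), the form best known from red cell precursors, was at 17.2, 16.1 and 21.8 FPKM in HFD and 23.7, 25.6 and 25.6 in BT. Slc25a28 (mitoferrin-2) was at 8.30, 9.06 and 8.02 FPKM in HFD and 6.38, 5.81 and 7.02 in BT. In neither gene did the groups overlap. The log2 changes were 0.43 ± 0.13 (adjusted p = 0.0558) and -0.36 ± 0.11 (adjusted p = 0.0697).

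Slc25a37 passed with quantile normalization (adjusted p = 0.0498), with a filter of 5 FPKM (adjusted p = 0.0453) and without HFD replicate 3 (0.56, adjusted p = 0.0234). With the length and GC trend removed its change was 0.23 (adjusted p = 0.134). Slc25a28 passed with median-of-ratios scaling (-0.42, adjusted p = 0.0467), with quantile normalization (-0.43, adjusted p = 0.0393) and after removal of the length and GC trend (-0.43, adjusted p = 0.0430). The 5 erythroid markers (Hba-a1, Hba-a2, Hbb-bs, Hbb-bt and Alas2) summed to 196 to 333 FPKM in HFD and 119 to 418 in BT, and none passed. Their sum was lowest in BT replicate 3 (119 FPKM) and highest in BT replicate 2 (418 FPKM), while Slc25a37 was at 25.6 FPKM in both. Alas2 alone was lowest in HFD replicate 3, at 27.6 FPKM against 28.7 in BT replicate 3. The part of these markers in the value of Slc25a37 was not tested.

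Among carriers of organic acids, none of 3 passed. Slc25a10, the dicarboxylate carrier that exchanges malate and succinate for phosphate, was at 225, 226 and 214 FPKM in HFD and 234, 268 and 230 in BT (0.13 ± 0.10, adjusted p = 0.391). Its change was 0.28 with quantile normalization and 0.31 after removal of the length and GC trend, without passing (adjusted p = 0.0786 and 0.0789). Slc25a21, which carries oxodicarboxylates of lysine breakdown, was at 11.7 ± 0.0579 and 13.8 ± 1.78 FPKM (0.21, adjusted p = 0.237), and its BT values were all above its HFD values. Slc25a11, the oxoglutarate carrier of the malate-aspartate shuttle, was at 50.9 ± 1.49 and 48.1 ± 3.12 FPKM (-0.08, adjusted p = 0.579).

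Slc25a30, a relative of the uncoupling proteins, had the second largest positive change but a wide spread. It was at 4.62, 2.65 and 5.78 FPKM in HFD and 9.09, 6.67 and 5.43 in BT, so that BT replicate 3 was below HFD replicate 3 (0.61 ± 0.24, adjusted p = 0.124). Without HFD replicate 2 the change was 0.36. Of the 3 members grouped as having no settled cargo, which leaves out Slc25a47 and Slc25a53, none passed. Slc25a34 was lower in every BT library (4.61 ± 0.338 and 3.76 ± 0.325 FPKM; -0.24, adjusted p = 0.192) and Slc25a35 higher in every one (0.978 ± 0.0967 and 1.27 ± 0.0753 FPKM; 0.20, adjusted p = 0.280). Slc25a46, which acts in the shape of mitochondria, overlapped (0.16, adjusted p = 0.476).

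Several carriers have a close relative, in most pairs with the same cargo, and the share of each in the summed FPKM of its pair is given here. These shares are descriptions with no test, since an exact permutation test of 3 against 3 cannot go below p = 0.1. Slc25a5 made up 99.0% ± 0.434 of the ADP/ATP carrier mRNA in HFD and 99.3% ± 0.176 in BT, the rest being Slc25a4 (SD, n = 3 each). Slc25a39 made up 99.0% and 99.1% of its pair with Slc25a40. Slc25a13 made up 93.1% ± 1.19 and 92.7% ± 1.12 of its pair with Slc25a12.

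Within the mitoferrins the share of Slc25a37 was 67.5%, 63.9% and 73.1% in HFD and 78.8%, 81.5% and 78.5% in BT. These do not overlap. Of the calcium-regulated ATP-Mg carriers, Slc25a23 held 39.1%, 50.6% and 46.6% of its sum with Slc25a25 in HFD and 48.8%, 59.3% and 68.7% in BT. These overlap, since Slc25a25 varied widely within both diets. Slc25a25 was at 50.6, 26.9 and 38.1 FPKM in HFD and 48.7, 39.3 and 23.8 in BT (-0.06 ± 0.28, adjusted p = 0.898). The third carrier of this kind, Slc25a24, averaged 0.389 FPKM and was not tested. Slc25a33 made up 68.4% ± 6.68 and 66.8% ± 4.89 of the pyrimidine nucleotide carriers. Slc25a10 made up 81.3% ± 0.934 and 83.5% ± 0.277 of its sum with Slc25a11, a relative whose cargo is only in part the same. All BT shares were above all HFD shares.

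**Figure D4:**
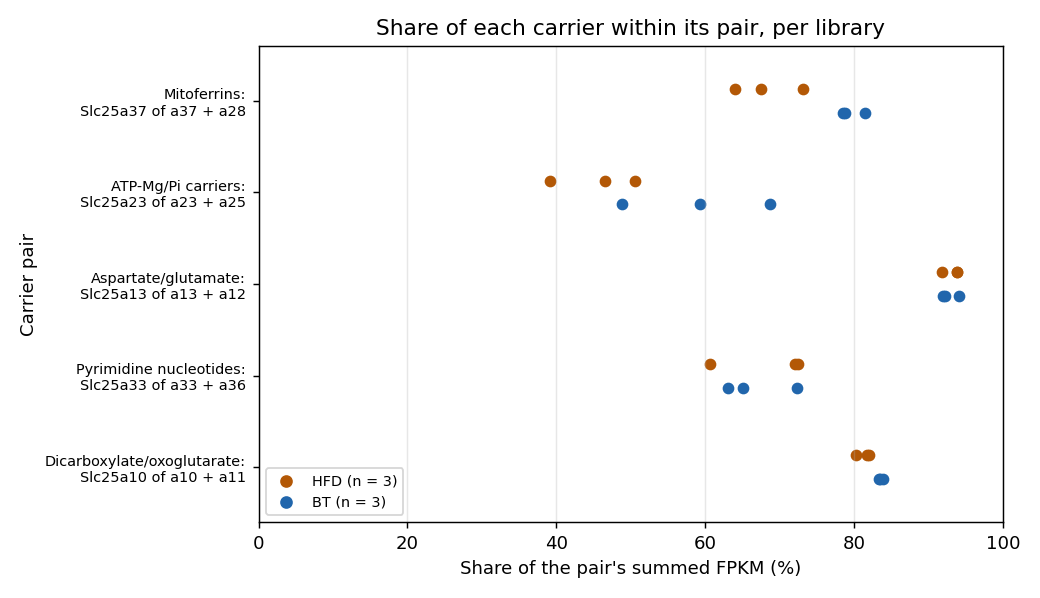
Share of 1 carrier in the summed FPKM of its pair, in percent, per library (3 HFD above, 3 BT below on each line). The share of Slc25a37 among the mitoferrins is 63.9% to 73.1% in HFD and 78.5% to 81.5% in BT, and that of Slc25a10 also separates. The other 3 pairs overlap between the diets.

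Changes in these libraries went with transcript length. Over 10403 genes with an annotated length, Pearson's r between log2 length and log2 change was 0.41, a description across genes that share the same 6 libraries. Genes with transcripts under 1000 bases had a median change of -0.47 (525 genes) and those of 4000 bases or more 0.20 (3714 genes). Over the 36 members r was 0.30, and none of them had a longest transcript under 1000 bases. The longest transcript was 3362 bases for Slc25a23 and 1890 for Slc25a47. Both passed with each library's trend on length and GC content removed, at 0.66 (adjusted p = 0.0208) and -0.51 (adjusted p = 0.0293).

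**Figure D5:**
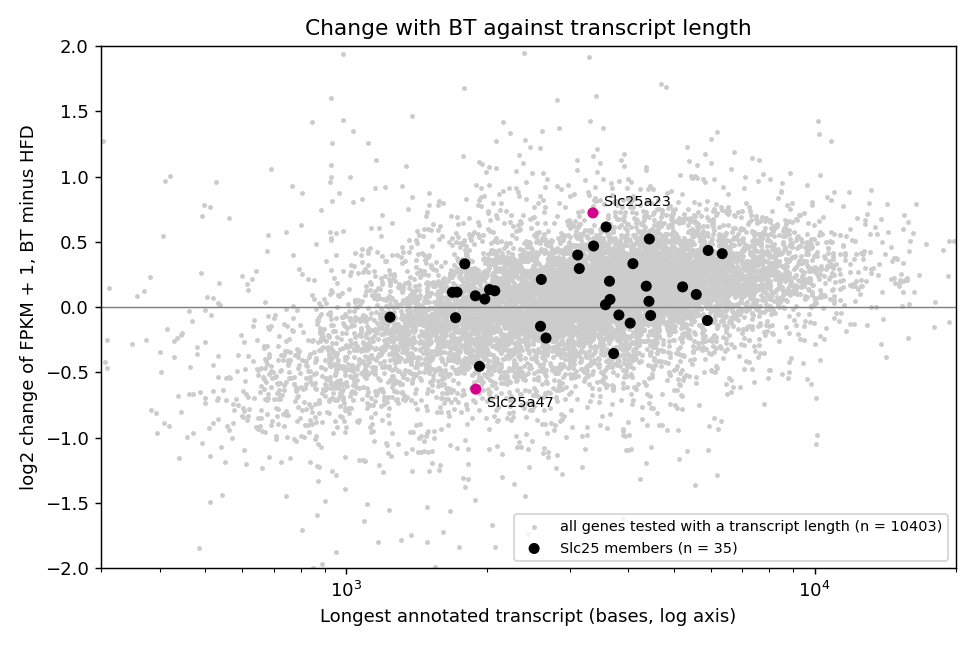
Log2 change of FPKM + 1, BT minus HFD, against the longest annotated transcript in bases (log axis), for all genes tested (grey; 33 genes lie outside the plotted range) and 35 of the 36 Slc25 genes (black; coloured where the adjusted p was under 0.05). The grey cloud climbs with length. Slc25a23 lies above and Slc25a47 below most grey points of similar length.

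The other proteins that serve carrier transport were read from lists chosen with earlier results of these data known, and are given by counts beside the 13.3% of all genes tested that passed. Of 3 family members outside the naming rule, Mtch2, which inserts proteins into the outer membrane, fell from 104 ± 8.30 to 80.0 ± 2.48 FPKM (-0.37 ± 0.10, adjusted p = 0.0455). Ucp2 and Mtch1 differed by -0.10 and -0.05 and did not pass (adjusted p = 0.673 and 0.785). Ucp1, the uncoupling protein of brown fat, is listed at 0 in all 6 libraries.

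Of 17 other transport genes of the mitochondrial membranes, 3 fell and none rose. These were Mpc1, a subunit of the pyruvate carrier (-0.46, adjusted p = 0.0277), Smdt1, the EMRE subunit of the calcium uniporter (-0.64, adjusted p = 0.0200), and Tspo, an outer membrane protein (-0.49, adjusted p = 0.0279). Their longest transcripts have 961, 736 and 837 bases. With the length and GC trend removed none of the 3 passed (-0.17, -0.29 and -0.11), while Mcu, the pore of the uniporter, did (-0.45, adjusted p = 0.0341). The porins Vdac1, Vdac2 and Vdac3, the outer membrane pores through which the carriers' cargo passes, differed by 0.03, 0.04 and -0.06 (adjusted p 0.702 to 0.861).

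Of 10 genes that import and insert the carriers, 2 fell and none rose, with a median change of -0.32. Timm10b, a small chaperone of the TIM22 route, fell from 31.5 ± 5.88 to 18.1 ± 3.72 FPKM (-0.77, adjusted p = 0.0276), and the receptor Tomm22 fell from 53.9 ± 4.91 to 38.8 ± 3.03 (-0.46, adjusted p = 0.0319). Timm22, the insertion channel, differed by -0.50 (adjusted p = 0.0530). With the length and GC trend removed Tomm22 did not pass (-0.32, adjusted p = 0.0777), and Timm22 (-0.57) and Tomm20 (-0.56) did.

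Of 24 enzymes that make or use the carriers' cargo, 4 rose and 3 fell, with a median change of 0.15. Gpd1, the cytosolic enzyme of the glycerol phosphate shuttle, fell from 36.8 ± 3.80 to 19.6 ± 1.21 FPKM (-0.87 ± 0.11, adjusted p = 0.00629). Got2, the mitochondrial aminotransferase of the malate-aspartate shuttle, rose from 224 ± 14.6 to 298 ± 6.58 FPKM (0.41, adjusted p = 0.0325). Dhtkd1, which works on the oxoadipate that Slc25a21 carries, rose from 18.1 ± 3.84 to 36.6 ± 4.62 FPKM (0.99 ± 0.16, adjusted p = 0.0113). With each library left out in turn, Gpd1 passed every time. Without BT replicate 1 all the other partner genes named here as changed missed the threshold. Dhtkd1 missed it in that case alone, and Mtch2, Mpc1, Smdt1, Tspo, Timm10b, Tomm22 and Got2 also without at least 2 other libraries.

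The 9 Slc25a genes below the mean of 1 FPKM were Slc25a27, Slc25a14, Slc25a24, Slc25a2, Slc25a31, Slc25a43, Slc25a18, Slc25a41 and Slc25a54. They were not tested, and their means ran from 0 to 0.970 FPKM. Slc25a31, the ADP/ATP carrier of the testis, was at 1.03 FPKM in BT replicate 1 and at 0.0512 or less in the other 5 libraries. Slc25a2, the second ornithine carrier, was at 0.166 to 0.320 FPKM, against 48.9 to 70.7 for Slc25a15. Slc25a18, the second glutamate carrier, was at 0.106 FPKM or less, against 109 to 135 for Slc25a22.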

How the data were processed

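Liver mRNA from 3 HFD and 3 BT mouse libraries was analysed, grouped by the sample titles. The deposited table holds FPKM made by the authors. Tools listed in the submitters' processing notes, without their roles, were STAR 2.4.0, Cufflinks 2.1.1 and CASAVA 1.8.2. Build, annotation and strand setting: not given in the sources used here. No 2 libraries held identical values. GENCODE M21 (GRCm38) named 22671 identifiers and gave positions and transcript lengths, and the authors' build may differ.

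Genes averaging 1 FPKM or more were tested as log2(FPKM + 1) with limma 3.58.1 in R 4.3.3 (eBayes with a variance trend, two-sided, 4 residual degrees of freedom), with Benjamini-Hochberg adjustment over all 10476 genes and a threshold of 0.05. The code was tested on simulated data. Errors are SD for levels and limma's SE for log2 changes. Depth was taken from the median of FPKM times kilobases between 0.03 and 0.1 in genes with 1 transcript over 1000 bases. Transcripts were compared with BLAST 2.17.0 (at least 95% identity over 100 bases).

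The members and lists were chosen with earlier results of these data known. The rule gives members past the threshold per library, the others by level and change, and at most 4 called genes per list. Values per library of other members, and list genes that did not pass, were chosen after their values were seen. Alternatives were a pseudocount of 0.1, no filter, a filter of 5 FPKM, 3 scalings, 2 empirical Bayes settings, a block on replicate number and the omission of each library in turn. Removal of each library's length and GC trend (splines with 5 degrees of freedom) was chosen after seeing the data. Protein sequences were not used here. 1 member and 1 list gene are counted but not reported here. Figures were drawn with matplotlib 3.10.9.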

Additional observations from a re-analysis of the deposited data

How the results depend on the processing

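With no filter on low values 200 genes were called higher and 345 lower, and after removal of the length and GC trend 399 were called higher. Leaving out 1 library gave 49 to 855 genes higher and 124 to 814 lower; the lowest counts came without BT replicate 1. The count was also down by over 1.5 times without BT replicate 2 (103 and 221), BT replicate 3 (207 and 382) and HFD replicate 2 (221 and 400). Slc25 members called higher numbered 2 with a filter of 5 FPKM (24 members tested), 3 when rescaled to the same sum, 3 with quantile normalization and 2 after removal of the length and GC trend. Over all genes, 599 of 6799 were higher with that filter and 621 of 10476 with that rescaling. Quantile normalization gave 682 of 10476, and removal of the length and GC trend 399 of 10403. Members called lower numbered 2 with median-of-ratios scaling and 2 after removal of that trend, beside 884 of 10476 and 550 of 10403 genes. Leaving out 1 library gave 0 to 3 members higher and 0 to 1 lower. The cause of these shifts was not tested.

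The median change over the members stayed above 0 in all 16 alternatives, from 0.04 with median-of-ratios scaling to 0.20 when rescaled to the same sum. The median over all genes tested was also above 0 in each, at 0.01 and 0.15 in those settings. In the tests of single members, 545 alternative values kept the side of the threshold, 14 passed newly and 5 no longer passed. Small differences of members that did not pass changed sign in places. Same-numbered libraries of the 2 diets had correlations of deviations from the group means of 0.16, 0.10 and 0.15, and each was highest with its own number, a hint from the data and not the design. With a replicate block 859 genes were called higher and 949 lower, and 2 members higher (Slc25a37 in addition) and 1 lower. Depth limits the members near 1 FPKM most.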
